A study of Rattus norvegicus with 10 samples.

Results

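The comparison described here sets rat liver 4 h after a burn injury against rat liver 1 h after it. Its members were chosen by time alone: the 2 arrays titled 4 h and the 2 titled 1 h, which are 4 of the 10 arrays of the study. Each array measured total liver RNA of Rattus norvegicus, and the other 6 arrays were 2 of liver at 8 h, 2 at 24 h and 2 of sham livers at 0 h. Sham rats had no burn, and the labels give no strain, age, burn size or other agent for any group. Nor do they tell whether the 2 arrays of a time came from separate animals or pools, so every p measures the spread between arrays, which may be technical, and 2 arrays a group limit the precision. The sham arrays and the later burn arrays took no part in the difference between 4 h and 1 h, but their spread entered its error.

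In the first hours after a burn the liver receives stress hormones, cytokines and fatty acids from the rest of the body. Hepatocytes are known to answer with immediate early genes, then with acute phase proteins, enzymes that break down amino acids for glucose and urea, and a changed set of drug and steroid metabolising enzymes. The liver also has a circadian clock, in which Bmal1 with its partner drives genes such as Dbp through E-box sequences, while nuclear receptors of the ROR and REV-ERB families act on Bmal1.

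Values are probe set intensities on a linear scale, one probe set being a group of probes for one transcript. Intensities under a floor of 36.4 were set to it before taking log2, so a gene with both arrays of a time under the floor has a fold given as "at least". A call is an adjusted p under 0.05 by limma with Benjamini-Hochberg adjustment over all 5285 probe sets tested of 8799 on the array. Between 4 h and 1 h, 264 probe sets were called, 5.0% of those tested: 130 were higher at 4 h (2.46%) and 134 lower (2.54%), and 977 had an unadjusted p under 0.05. In 50.3% of the probe sets tested the 4 h arrays lay entirely to one side of the 1 h arrays, with 4 h above 1 h in 22.4% and below it in 27.9%. Leaving out one array at a time lowered the count to 155 (4 h array 1), 132 (4 h array 2), 118 (1 h array 1) and 113 (1 h array 2). Of the 211 called probe sets with a gene symbol, 65 were called with each of the 10 arrays left out in turn. With 1 probe set per gene, the one with the highest mean, 141 of 3143 genes were called (4.49%), of which 67 were higher (2.13%) and 74 lower (2.35%), around a median log2 change of -0.06. Of these 3143 genes, 1740 had a log2 change below 0. The counts in each gene list below are to be read beside these shares.

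**Figure D1:**
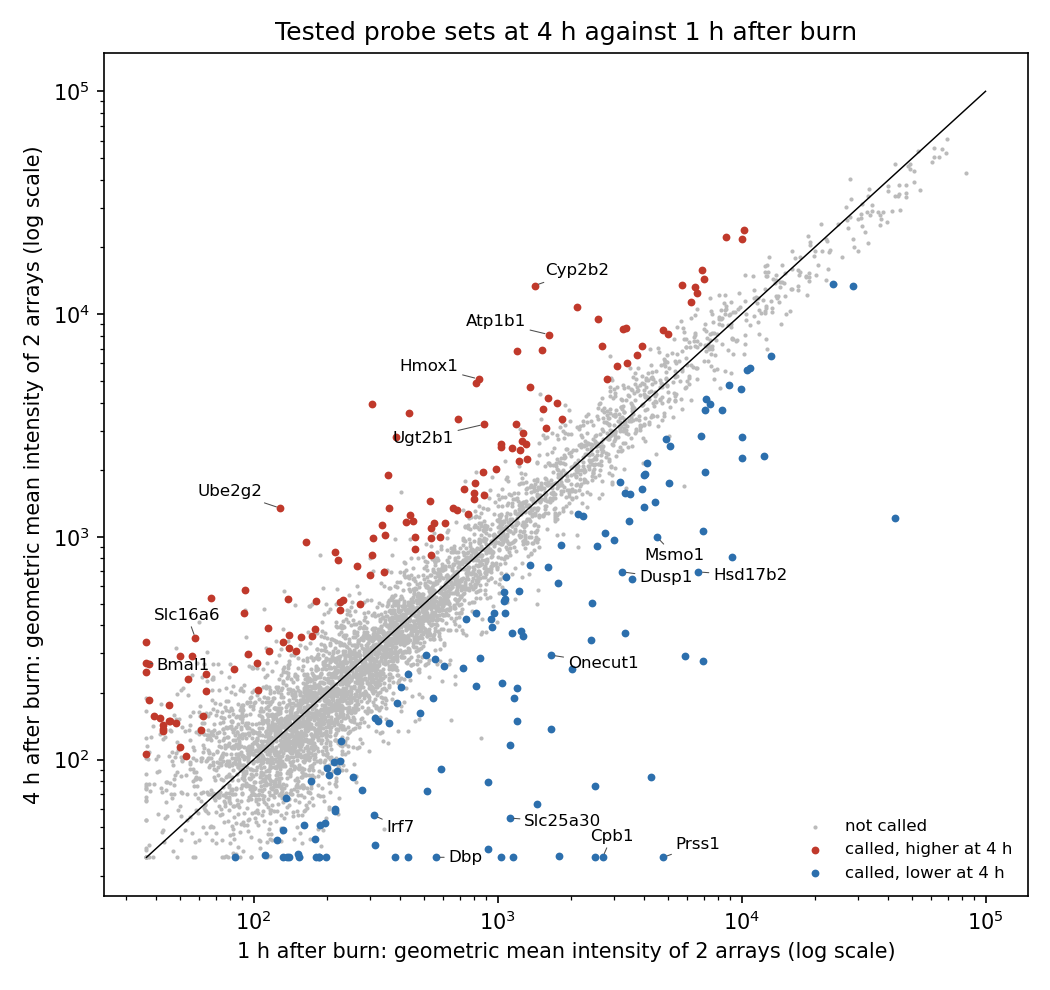
Geometric mean intensity of the 2 arrays at 4 h (vertical, log scale) against that of the 2 arrays at 1 h (horizontal, log scale) for the 5285 probe sets tested, after the floor of 36.4. The 130 red points above the line were called higher at 4 h and the 134 blue points below it lower, with Prss1 farthest below and Ube2g2, Cyp2b2 and Bmal1 among those farthest above.

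The liver label held on both sides of the comparison. All 12 hepatocyte markers measured, Alb among them, were above the floor, and their summed intensity was 261423.1 and 318030.0 at 4 h, against 306937.0 and 348354.5 at 1 h, with a median log2 change of -0.15. Markers of other cells are given beside the genes they moved with. On the 4 h arrays the signal at the 3′ over the 5′ end of Gapdh was 1.063 and 1.461, against 1.159 and 1.236 on the 1 h arrays, a check of RNA ends in which the times overlapped. The same ratio for actin did not overlap, at 1.032 and 0.769 at 4 h, against 1.224 and 1.062 at 1 h. The added bacterial control BioB read 729.8 and 799.8 at its 3′ end at 4 h, against 1168.5 and 1368.8 at 1 h, and 5S ribosomal RNA read 540.3 and 600.8 at 4 h, against 848.5 and 819.0 at 1 h. The part of these differences in the gene changes was not tested. Arrays of 1 time correlated with each other at 0.9483 or more, above every correlation between times.

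**Figure D2:**
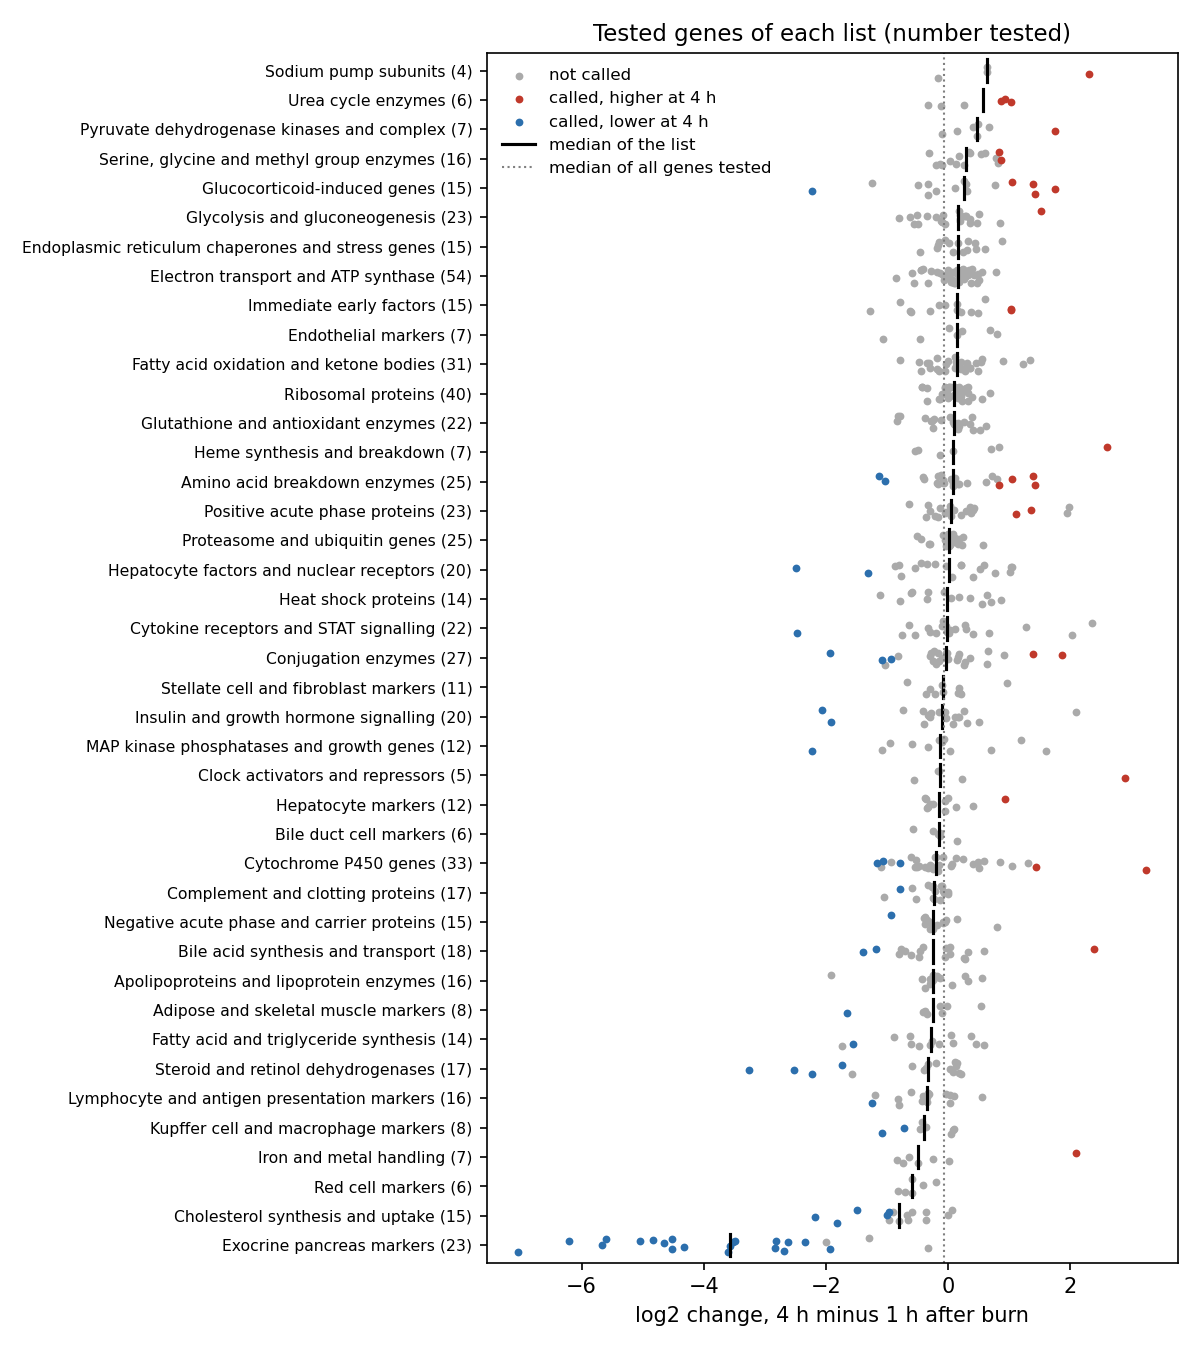
Log2 change at 4 h over 1 h for each tested gene (points, 1 probe set per gene) in most of the gene lists, sorted by the list's median (black bar), with the median of all 3143 genes tested as a dotted line. The solute carrier, ABC transporter and carboxylesterase lists and the lists with the fewest genes tested are not shown. The exocrine pancreas list lies farthest to the left with 20 genes called lower, and the cholesterol list next to it has 5 called lower and none called higher.

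The clock gene pair showed opposite changes at 4 h. Bmal1, the activator of the clock, stood at 295.1 and 247.7 at 4 h, against 13 and 25 at 1 h. It was below the floor on the sham, 8 h and 24 h arrays as well, so 4 h was the one time at which it stood above it. Bmal1 was thus tested only through its 4 h arrays, where it was high. The increase was at least 7.43-fold (log2 change 2.89, SE 0.15, n = 2 and 2, adjusted p = 9.27e-05). Dbp, a transcription factor of the clock's output, had 31.2 and 16.1 at 4 h, against 599.0 and 520.9 at 1 h, and fell at least 15.3-fold (log2 change -3.94, SE 0.28, adjusted p = 0.000354). Its sham arrays were the highest of the series at 1007.7 and 1463.0, and it was back at 365.7 and 255.4 by 8 h and 932.5 and 662.6 by 24 h. The other clock genes tested had smaller differences: Nr1d2 had a log2 change of -0.55, Bhlhe40 0.23, Csnk1d -0.16, Nr1d1 -0.14, Tef -0.12 and Hlf -0.12, and none of these 6 was called. Nr1d1, the repressor REV-ERB alpha, stood at 380.5 and 347.9 at 4 h, against 447.4 and 361.0 at 1 h. Per2 and Bhlhe41 were too dim to be tested. Bmal1 and Dbp kept their calls with each array left out in turn. The labels do not give the hour of day at which livers were taken, so clock time and time after the burn cannot be told apart.

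The promoters of these 2 called clock genes are shown because the clock's own elements are short words of known sequence. RefSeq sequence of build GRCr8 was searched on both strands, from 250 bases before to 50 bases after the gene's start, for CACGTG (E-box), AGGTCA (the site of ROR and REV-ERB receptors) and TTATGTAA (D-box). Capitals mark a match. Bmal1 lies at chr1:176766078-176766377 on the plus strand, and its one match was AGGTCA at position -15 from the start. Dbp lies at chr1:105312006-105312305 on the plus strand, and none of the 3 words is in this window.
Bmal1: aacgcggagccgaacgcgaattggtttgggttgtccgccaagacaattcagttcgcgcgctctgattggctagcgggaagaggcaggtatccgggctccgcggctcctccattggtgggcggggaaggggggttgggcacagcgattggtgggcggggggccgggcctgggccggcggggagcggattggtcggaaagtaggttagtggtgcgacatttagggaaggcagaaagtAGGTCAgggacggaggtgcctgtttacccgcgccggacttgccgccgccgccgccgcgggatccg
Dbp: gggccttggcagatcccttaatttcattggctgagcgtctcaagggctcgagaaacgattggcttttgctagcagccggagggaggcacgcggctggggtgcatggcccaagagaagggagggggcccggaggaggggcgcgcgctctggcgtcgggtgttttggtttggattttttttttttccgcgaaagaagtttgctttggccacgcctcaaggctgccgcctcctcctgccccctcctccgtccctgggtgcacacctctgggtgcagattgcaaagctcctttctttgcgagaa
Among all 33469 rat promoters of this length, 16.2% hold AGGTCA, 6.42% hold CACGTG and 0.893% hold TTATGTAA. Of the 8 tested clock genes, 6 had a promoter in the table. CACGTG stood in 3 of them (Bhlhe40, Nr1d1 and Tef), AGGTCA in 2 (Bmal1 and Nr1d2) and TTATGTAA in 0.

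In all, 5 enzymes of the cholesterol pathway were called lower at 4 h. Msmo1, which removes methyl groups from sterols, stood at 1334.1 and 741.8 at 4 h, against 4993.7 and 4079.3 at 1 h (log2 change -2.18, SE 0.30, adjusted p = 0.00902), and its other probe set fell by 2.46. Squalene synthase, Fdft1, had 968.7 and 849.5 at 4 h, against 2549.7 and 2562.5 at 1 h (-1.50, SE 0.16, adjusted p = 0.00271). In both genes the 2 times were well apart. Idi1, an isomerase that precedes farnesyl diphosphate, had 407.3 and 317.8 at 4 h, against 1691.8 and 955.9 at 1 h (-1.82, adjusted p = 0.0183). Cyp51, the lanosterol demethylase, had 2349.9 and 2763.0 at 4 h, against 5124.6 and 5027.6 at 1 h (-0.99, adjusted p = 0.015). Nsdhl, the next sterol dehydrogenase, had 997.0 and 855.1 at 4 h, against 1904.0 and 1730.4 at 1 h (-0.98, adjusted p = 0.0153). Of the 15 tested genes of the list 5 were called lower, 0 higher, and 13 had a log2 change below 0. The list's median was -0.81, and -0.81 to -0.62 with each array left out. A further 4 enzymes lay just outside the threshold: Fdps (-0.81, adjusted p = 0.0506), Acat2 (-0.97, 0.0514), Lss (-0.66, 0.0546) and Sqle (-0.67, 0.0661). Idi1, the fifth by p, and these 4 were named after their values were seen. Single probe sets differed in the call: of 4 for Fdft1, 2 were lower and the other two had changes of -1.26 and -1.01. Of 5 for Cyp51, 2 were lower and the other three had -0.50, -0.20 and -0.79, and 1 of 3 for Fdps was called lower (-0.83). Msmo1 was not called without 1 h array 1 (adjusted p of 0.0677). Idi1 was not called without either of the 4 h arrays or 1 h array 1 (adjusted p up to 0.114). Cyp51 was not called without either of the 1 h arrays or 4 h array 1 (adjusted p up to 0.087). Nsdhl was not called without either of the 1 h arrays or 4 h array 2 (adjusted p up to 0.0952). Fdft1 kept its call with each array left out and was not called with the 4 h and 1 h arrays alone in the fit (adjusted p = 0.0566).

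These promoters are shown for comparison because the 4 genes fell together. Sterol regulatory element binding proteins are known to act on such genes, often beside the CCAAT-binding factor NF-Y. The words searched on both strands were TCACNCCAC (a sterol regulatory element) and CCAAT, in capitals where found. Msmo1 (chr16:29746863-29747162, plus strand) holds CCAAT at -173, -109 and -68. Idi1 (chr17:66547475-66547774, minus strand) holds it at -66 and -35 on the reverse strand. Nsdhl (chrX:155817110-155817409, plus strand) holds it 5 times, at -208, -128, -119 and -91 on the reverse strand and at -65 as read. Cyp51 (chr4:30991443-30991742, plus strand) holds neither word in this window.
Msmo1: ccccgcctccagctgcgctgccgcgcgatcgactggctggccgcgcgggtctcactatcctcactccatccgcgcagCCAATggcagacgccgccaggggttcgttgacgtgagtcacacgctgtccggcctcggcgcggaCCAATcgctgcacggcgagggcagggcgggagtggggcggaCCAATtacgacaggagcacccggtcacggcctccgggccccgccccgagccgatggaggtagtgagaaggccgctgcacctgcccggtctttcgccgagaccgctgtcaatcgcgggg
Idi1: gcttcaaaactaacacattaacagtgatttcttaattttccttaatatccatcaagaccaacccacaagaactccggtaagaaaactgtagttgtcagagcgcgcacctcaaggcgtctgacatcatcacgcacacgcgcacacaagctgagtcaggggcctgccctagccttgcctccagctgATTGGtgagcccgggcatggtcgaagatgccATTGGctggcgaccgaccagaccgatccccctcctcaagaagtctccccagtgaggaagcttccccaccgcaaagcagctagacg
Nsdhl: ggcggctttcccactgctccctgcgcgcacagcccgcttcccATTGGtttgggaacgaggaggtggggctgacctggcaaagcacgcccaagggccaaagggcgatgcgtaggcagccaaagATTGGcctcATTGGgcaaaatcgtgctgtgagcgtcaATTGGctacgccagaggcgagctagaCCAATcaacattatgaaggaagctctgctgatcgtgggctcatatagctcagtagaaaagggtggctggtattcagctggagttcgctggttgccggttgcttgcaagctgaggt
Cyp51: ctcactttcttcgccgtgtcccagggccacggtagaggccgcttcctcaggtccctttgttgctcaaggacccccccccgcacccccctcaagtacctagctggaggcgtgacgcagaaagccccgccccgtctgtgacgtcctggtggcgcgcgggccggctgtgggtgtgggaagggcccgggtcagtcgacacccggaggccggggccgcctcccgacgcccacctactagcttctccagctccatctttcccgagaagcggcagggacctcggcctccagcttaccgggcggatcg
CCAAT stands in 37.5% of all promoters of this length and TCACNCCAC in 1.12%. Of the 15 tested cholesterol genes 12 had a promoter in the table, of which 9 held CCAAT and 0 held TCACNCCAC. Fdft1 had no entry.

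Among lipid genes outside that pathway, Acly, which makes cytosolic acetyl-CoA for fatty acid and sterol synthesis, fell to 1404.8 and 1324.3 at 4 h, against 4182.0 and 3806.4 at 1 h (log2 change -1.55, SE 0.16, adjusted p = 0.00183). It was the one called gene of 14 tested for fatty acid and triglyceride synthesis, whose median was -0.28. Srebf1, the transcription factor of this pathway, had a log2 change of -0.89 (adjusted p = 0.0506), Gpam -1.74 and Dgat1 0.58, without a call on these probe sets, while 2 dimmer ones of Gpam were called lower (-1.85 and -1.59). For Acly 2 of 3 probe sets were called and the other had -1.40. None of 31 genes of fatty acid oxidation and ketone bodies was called (limma, median 0.14), and 8 had an unadjusted p under 0.05. Cpt2, of the mitochondrial carnitine system, had the smallest p at a log2 change of 0.55 (adjusted p = 0.0821), followed by Fabp1 (-0.48), Cd36 (1.22, and 2.31 on a dimmer probe set that was called higher) and Acads (0.46). Pex11a, of peroxisome division, was called higher on a dimmer probe set alone (1.19). In bile acid synthesis, Cyp7a1, the rate-limiting enzyme, had 1405.9 and 1708.8 at 4 h, against 3674.7 and 3328.3 at 1 h (-1.17, SE 0.18, adjusted p = 0.0135). Amacr, a racemase of bile acid intermediates, had 1198.8 and 907.0 at 4 h, against 2871.8 and 2626.1 at 1 h (-1.40, adjusted p = 0.00701). Both fell with no overlap between the times. Abcc3, an efflux pump for bile salts and conjugates on the sinusoidal side, rose instead, with 280.3 and 306.9 at 4 h, against 86.2 and 18.5 at 1 h (2.39, adjusted p = 0.0135, a size that depends on the floor). Its sham arrays, 261.2 and 249.3, were close to those at 4 h. Of 18 tested genes in the bile acid list 1 rose and 2 fell, around a median of -0.24, beside 2.13% of all genes higher and 2.35% lower. The bile acid receptor Nr1h4 had a log2 change of -0.80 and was not called. Acly kept the call with each array left out in turn. Amacr was not called without 1 h array 1 (adjusted p of 0.0561). Cyp7a1 was not called without either of the 1 h arrays or 4 h array 1 (adjusted p up to 0.0862). Abcc3 was not called without either of the 4 h arrays (adjusted p up to 0.0868).

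Steroid and retinol dehydrogenases held several of the largest decreases in genes known from hepatocytes. Hsd17b2, which inactivates estradiol and testosterone, stood at 597.6 and 810.2 at 4 h, against 6762.0 and 6548.5 at 1 h, a fall of 9.56-fold (log2 change -3.26, SE 0.18, adjusted p = 0.000134). Hsd3b5, a hydroxysteroid dehydrogenase, had 232.6 and 188.4 at 4 h, against 1098.8 and 1313.9 at 1 h (-2.52, adjusted p = 0.00159). Akr1c13, an aldo-keto reductase, had 254.4 and 193.3 at 4 h, against 920.6 and 1182.2 at 1 h (-2.23, adjusted p = 0.00213). In all 3 genes the 4 h arrays were far below the 1 h arrays. Adh4, an alcohol dehydrogenase that also oxidises retinol, had 398.3 and 356.5 at 4 h, against 1206.3 and 1298.7 at 1 h (-1.73, adjusted p = 0.000782). Sham arrays of Akr1c13, 296.6 and 221.1, stood with those at 4 h, and those of Hsd3b5 were also nearer to 4 h than to 1 h. Sham arrays of Hsd17b2 and Adh4 were nearer to 1 h, with 1387.7 and 1499.9 for Adh4. These 4 were the called genes of 17 tested, 0 rose, and the median was -0.33. The 4 kept their calls with each array left out, and Akr1c13 was not called with the 4 h and 1 h arrays alone in the fit (adjusted p = 0.0507).

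Cytochrome P450 genes moved in both directions. Cyp2b2, the classic phenobarbital-inducible form of rat liver, had 12926.0 and 13929.2 at 4 h, against 1494.1 and 1346.2 at 1 h, a rise of 9.46-fold (log2 change 3.24, SE 0.16, adjusted p = 9.15e-05). Sham livers lay between at 2899.2 and 3529.7, so the 1 h arrays were the lowest of the series. Cyp17a1, a steroid hydroxylase and lyase, had 828.0 and 828.3 at 4 h, against 351.5 and 268.1 at 1 h (1.43, adjusted p = 0.00603). The male-typical Cyp2c11 went the other way, with 3674.7 and 3709.7 at 4 h, against 8654.0 and 7995.2 at 1 h (-1.17, adjusted p = 0.0073), and its other 2 probe sets were called lower too. Cyp2a2 had a log2 change of -1.06 (adjusted p = 0.0115) and Cyp2c7, named after its values were seen, of -0.79 (adjusted p = 0.0276). Sham levels of Cyp2c11, 3608.8 and 3631.5, stood with those at 4 h. Of 33 P450 genes tested 2 rose and 3 fell, around a median of -0.20. Among 27 conjugating enzymes 2 rose and 3 fell (median -0.04). Beside these counts, 2.13% of all genes were called higher and 2.35% lower. The glucuronosyltransferase Ugt2b1 had 3399.7 and 3012.4 at 4 h, against 897.6 and 867.9 at 1 h (1.86, SE 0.16, adjusted p = 0.000801). Gsta3, a glutathione transferase, had 3861.4 and 4580.8 at 4 h, against 1576.7 and 1629.2 at 1 h (1.39, adjusted p = 0.00373). The other 2 probe sets of Gsta3 had changes of 0.43 and 0.75 and were not called. For Ugt2b1 and Gsta3 the sham arrays stood nearer to 4 h than to 1 h, at 3167.7 and 2710.4 for Ugt2b1 and 4148.0 and 4039.7 for Gsta3. Ugt2b fell by 1.09 (adjusted p = 0.0102) on 1 of 3 probe sets and the sulfotransferases Sult1c3 and Sult1c2a by 0.94 and 1.93 (adjusted p = 0.0384 and 0.041), Sult1c2a being named after its values were seen. Probe sets of these families can share sequence with close relatives, so a change may belong to more than one member. Cyp2b2, Ugt2b1, Cyp17a1 and Gsta3 kept the call with each array left out in turn. Cyp2c11 was not called without 1 h array 1 (adjusted p of 0.0593). Cyp2a2 was not called without 1 h array 1 or 4 h array 2 (adjusted p up to 0.0788). Cyp2c7 was not called without any of the 1 h, 4 h and 24 h arrays (adjusted p up to 0.142). Ugt2b was not called without any of the 4 h and 1 h arrays (adjusted p up to 0.0751). Sult1c3 was not called without any of the 10 arrays (adjusted p up to 0.18). Sult1c2a was not called without any of the sham, 1 h, 8 h and 24 h arrays (adjusted p up to 0.179). Cyp17a1 and Gsta3 were not called with the 4 h and 1 h arrays alone in the fit (adjusted p = 0.0938 and 0.0777).

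Enzymes that break down amino acids and make urea were among those higher at 4 h. Tdo2, which opens the tryptophan ring, had 9068.3 and 8047.7 at 4 h, against 3255.5 and 3260.0 at 1 h (log2 change 1.39, SE 0.16, adjusted p = 0.00399). Got1, cytosolic aspartate aminotransferase, had 7213.4 and 7193.0 at 4 h, against 2984.6 and 2400.1 at 1 h (1.43, adjusted p = 0.00853). The sham arrays of Tdo2 were at 2582.1 and 2386.7 and those of Got1 at 1493.2 and 1263.4. Agxt and Sds, named after their values were seen, use serine and glyoxylate: Agxt had 8232.0 and 8792.9 at 4 h, against 4336.6 and 5258.3 at 1 h (0.83, adjusted p = 0.0287). Sds had 16068.6 and 11002.9 at 4 h, against 7083.4 and 5865.7 at 1 h (1.04, adjusted p = 0.0493). Of the further probe sets, 2 of 5 for Agxt and 1 of 2 for Sds (a log2 change of 1.88) were called higher, and none was called lower. D-amino acid oxidase, Dao, fell by 1.04 (adjusted p = 0.0153) and Bckdhb, of the branched-chain ketoacid dehydrogenase, had a log2 change of -1.14 (adjusted p = 0.0244). Of 25 genes of amino acid breakdown tested 4 rose, 2 fell, and the median was 0.08. In the urea cycle 3 of 6 rose, with a median of 0.57. Arg1, which splits arginine, had 13200.4 and 11697.8 at 4 h, against 6854.5 and 6254.2 at 1 h (0.92, adjusted p = 0.021). Ass1, which makes argininosuccinate, had 12849.9 and 15983.8 at 4 h, against 6292.7 and 7774.8 at 1 h (1.04, adjusted p = 0.0405), and Asl, which cleaves it, had 10342.1 and 12511.7 at 4 h, against 5585.5 and 6892.4 at 1 h (0.87, adjusted p = 0.0372). A second probe set of Asl had a change of 0.69 and was not called. These are the cytosolic enzymes of the cycle, and the mitochondrial Cps1 (-0.32), Otc (-0.12) and Glud1 (0.27) were not called. Tdo2 kept the call with each array left out in turn. Got1 was not called without 1 h array 2 or 4 h array 2 (adjusted p up to 0.0616). Agxt and Asl were not called without any of the 10 arrays (adjusted p up to 0.152 and 0.18). Sds was not called without any of the sham, 1 h, 8 h and 24 h arrays or 4 h array 1 (adjusted p up to 0.229). Dao was not called without either of the 1 h arrays or 4 h array 1 (adjusted p up to 0.104). Bckdhb was not called without any of the 4 h and 24 h arrays or 1 h array 2 (adjusted p up to 0.134). Arg1 was not called without any of the 4 h and 1 h arrays (adjusted p up to 0.126). Ass1 was not called without any of the 1 h, 4 h, 8 h and 24 h arrays (adjusted p up to 0.199). Tdo2 was not called with the 4 h and 1 h arrays alone in the fit (adjusted p = 0.0668).

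Methyl group transfer held 2 of the rises among 16 tested genes of serine, glycine and methyl groups, where 0 fell and the median was 0.30. Gnmt, which methylates glycine, had 7111.8 and 7223.1 at 4 h, against 3800.4 and 4023.8 at 1 h (log2 change 0.87, adjusted p = 0.026). Mat1a, which makes S-adenosylmethionine in liver, had 5937.5 and 6148.4 at 4 h, against 3143.0 and 3651.0 at 1 h (0.84, adjusted p = 0.026). For Gnmt 2 of 3 probe sets were called, and the other had 0.87. Bhmt (0.54) and Mat2a (0.82) were not called. Glucocorticoid-induced genes overlap with the enzyme lists: of 15 tested, Tdo2, Got1, Pdk4 and Sds rose, Dusp1 fell, and the median was 0.26, ranging between 0.12 and 0.26 with each array left out. Pdk4, the kinase that switches off pyruvate dehydrogenase, had 1247.4 and 1031.2 at 4 h, against 300.7 and 378.4 at 1 h (1.75, SE 0.32, adjusted p = 0.026). It was the one called gene of 7 tested for pyruvate dehydrogenase and its kinases (median 0.47), where Dlat (0.67, with 2 dimmer probe sets called higher at 1.05 and 1.16), Pdk2 (0.41), Pdha1 (0.48), Pdhb (0.47), Pdk1 (0.15) and Pdp2 (-0.10) were not called and Pdp1 and Pdhx were too dim to test. Aldoa, an aldolase of glycolysis, had 1232.8 and 1276.3 at 4 h, against 432.5 and 444.2 at 1 h (1.52, SE 0.14, adjusted p = 0.00122), the one call among 23 genes of glycolysis and gluconeogenesis (median 0.17). That is 4.35% of the list, near the 4.49% of all genes called. The gluconeogenic genes Pck1 (-0.50) and Pc (-0.63) and the glycolytic Pgk1 (0.50) were not called. Aldoa kept the call with each array left out in turn. Gnmt and Pdk4 were not called without any of the 4 h and 1 h arrays (adjusted p up to 0.133 and 0.138). Mat1a was not called without any of the sham, 1 h, 4 h and 24 h arrays (adjusted p up to 0.143).

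**Figure D3:**
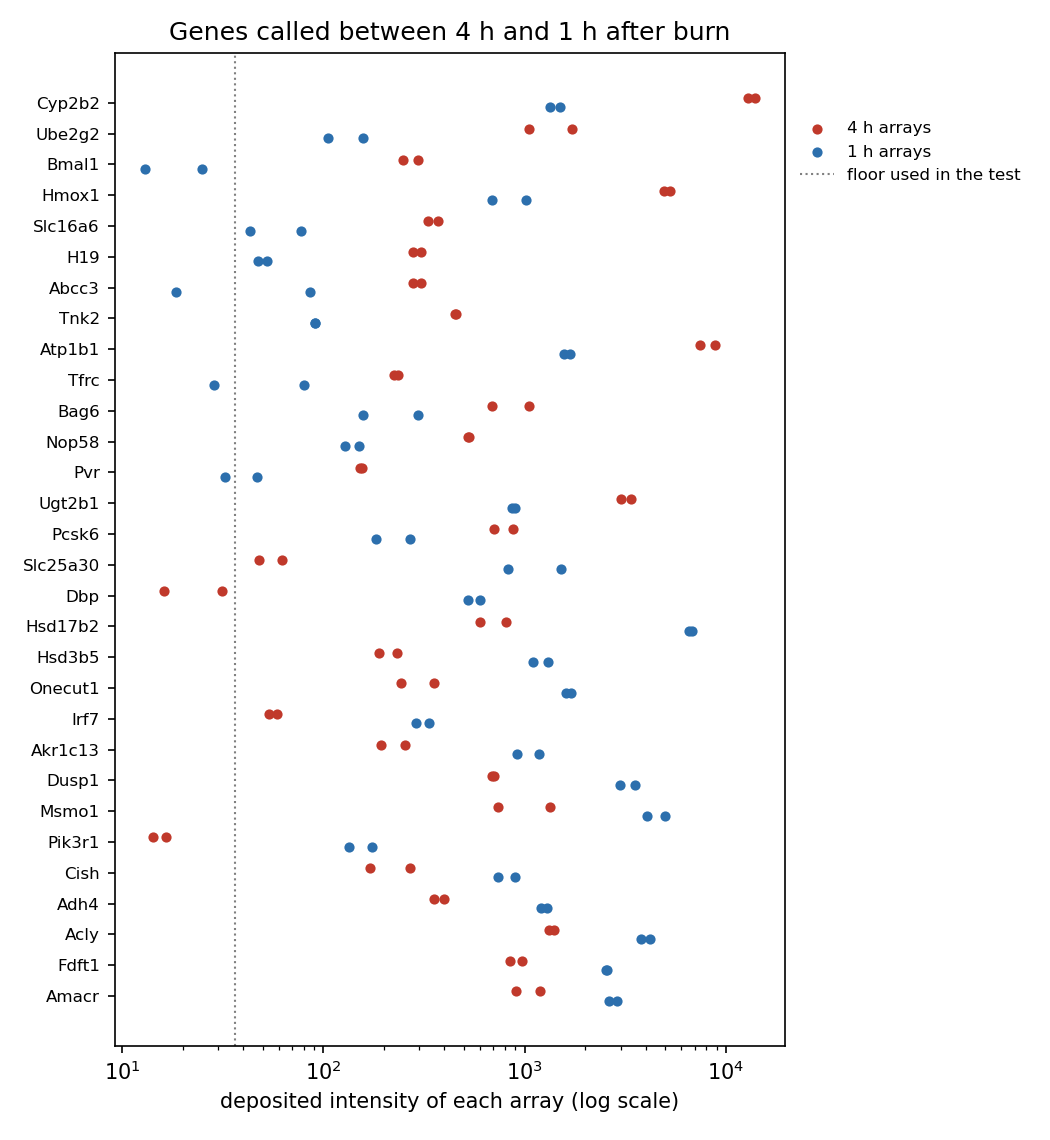
Intensity of each array (horizontal, log scale) at 4 h (red, upper of each pair) and 1 h (blue, lower) for 30 called genes. They are the 15 with the largest increases and 15 called lower that are not exocrine pancreas markers. The 15 called lower were picked without a ranking by size. Some decreases larger than those shown for other genes are left out, such as G0s2 (log2 change -2.94), named after its values were seen. In every gene shown the 2 arrays at 4 h lie on one side of the 2 at 1 h, which was a condition for choosing the 15 increases. The same held for 50.3% of all probe sets tested.

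Heme breakdown and iron uptake each had 1 called gene. Hmox1, which degrades heme, had 4919.4 and 5303.9 at 4 h, against 691.7 and 1014.0 at 1 h, a rise of 6.1-fold (log2 change 2.61, SE 0.24, adjusted p = 0.00122). Its other called probe set rose by 2.87 on the log2 scale. Sham arrays stood at 401.7 and 550.7, below both 1 h arrays. Of 7 heme genes tested the other 6 were not called: Blvra (0.71), Alas1 (0.84), Alad (-0.55), Urod (-0.49), Ppox (-0.13) and Hmox2 (0.08). Alas1, which starts heme synthesis, stood at 5256.7 and 5105.7 at 4 h, against 2451.0 and 3442.6 at 1 h. Tfrc, the transferrin receptor, had 225.3 and 235.2 at 4 h, against 80.0 and 28.7 at 1 h (2.09, adjusted p = 0.0267, a size that depends on the floor). Of the other iron and metal genes tested, Cp (-0.63, with 1 of its other 2 probe sets called lower at -0.84), Ireb2 (-0.84), Slc30a1 (-0.75), Slc40a1 (-0.50), Aco1 (-0.25) and Slc11a2 (0.01) were not called, and the list's median was -0.50. Red cells carry heme themselves: 6 of 6 red cell markers had a log2 change below 0 with 0 called by limma and 3 at an unadjusted p under 0.05 (median -0.59), and their summed intensity was 39833.1 and 44414.3 at 4 h, against 62502.5 and 71867.9 at 1 h. The part of red cells in the heme genes was not tested. Hmox1 kept the call with each array left out in turn. Tfrc was not called without any of the 4 h and 24 h arrays or 1 h array 2 (adjusted p up to 0.141).

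The sodium pump subunit Atp1b1 and 2 solute carriers were also among the largest changes. Atp1b1, the beta subunit of the pump, had 7422.9 and 8808.5 at 4 h, against 1570.6 and 1682.6 at 1 h, a rise of 4.97-fold (log2 change 2.31, SE 0.17, adjusted p = 0.000383), with both other probe sets called higher. By 8 h it was back at 855.6 and 782.0, near the sham values of 655.9 and 750.7. Atp1b3 (0.64), Atp1b2 (0.64) and Fxyd1 (-0.17) were not called, and Atp1a4, Atp4b and Fxyd2 were too dim to test. Slc16a6, of the monocarboxylate transporter family, had 370.8 and 330.7 at 4 h, against 43 and 77.7 at 1 h (2.60, SE 0.39, adjusted p = 0.0125). Slc25a30, a carrier of the inner mitochondrial membrane, had 62.6 and 47.7 at 4 h, against 1521.9 and 823.8 at 1 h, a fall of 20.5-fold (-4.36, SE 0.29, adjusted p = 0.000289). The 4 h arrays of Slc25a30 were the lowest of the series, with 655.7 and 606.4 in sham livers. These were the 2 called genes of 94 solute carriers tested (2.13%, beside 4.49% of all genes), whose median was -0.05. Abcc3 was the one called of 12 ABC transporters (8.33%). Atp1b1 and Slc25a30 kept the call with each array left out in turn. Slc16a6 was not called without either of the 4 h arrays or 1 h array 1 (adjusted p up to 0.0706).

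Further genes with the largest increases came from several pathways. Ube2g2, a ubiquitin-conjugating enzyme of endoplasmic reticulum quality control, had 1055.1 and 1712.2 at 4 h, against 106.0 and 156.7 at 1 h, a rise of 10.4-fold (log2 change 3.38, SE 0.64, adjusted p = 0.0293). One sham array of Ube2g2 read 424.0 and the other 97.4, so its levels varied within a group. H19, an imprinted non-coding RNA, had 277.7 and 307.5 at 4 h, against 47.2 and 52.7 at 1 h (2.55, adjusted p = 0.0023). The tyrosine kinase gene Tnk2 had 455.2 and 452.6 at 4 h, against 91.3 and 91.3 at 1 h (2.31, adjusted p = 0.00961), while its second probe set, with a change of 1.04, was not called. Bag6, a chaperone for newly made membrane proteins, had 692.2 and 1050.8 at 4 h, against 295.6 and 157.1 at 1 h (1.98, adjusted p = 0.0408). Nop58, a core protein of small nucleolar particles that modify ribosomal RNA, had 522.5 and 530.1 at 4 h, against 128.5 and 150.2 at 1 h (1.92, adjusted p = 0.015). Pvr, a cell adhesion receptor, had 156.0 and 151.8 at 4 h, against 32.6 and 46.6 at 1 h (1.90, adjusted p = 0.00299, a size that depends on the floor), and Pcsk6, a proprotein convertase, had 874.2 and 706.4 at 4 h, against 268.5 and 183.2 at 1 h (1.82, adjusted p = 0.0148). A second probe set of Pcsk6, at 2.21, was not called. These 7 genes were chosen among calls without overlap, so their 4 h arrays lie above their 1 h arrays by that choice. Pvr was also tested only through its 4 h arrays, where it was high. Sham arrays of Bag6, 650.3 and 769.5, and those of Tnk2 were nearer to 4 h than to 1 h on the log2 scale. Those of H19, Nop58, Pvr and Pcsk6 were nearer to 1 h. H19 kept the call with each array left out in turn. Ube2g2 was not called without any of the 1 h, 4 h, 8 h and 24 h arrays (adjusted p up to 0.171). Tnk2 and Nop58 were not called without any of the 4 h and 1 h arrays (adjusted p up to 0.0641 and 0.0908). Bag6 was not called without any of the sham, 1 h, 4 h and 24 h arrays (adjusted p up to 0.208). Pcsk6 was not called without either of the 4 h arrays or 1 h array 2 (adjusted p up to 0.0919). Pvr was not called with the floor raised to the 50th percentile or with an intensity trend (adjusted p up to 0.111).

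Among signalling genes 2 immediate early factors rose, while a phosphatase and 2 signalling proteins fell. Egr1, an early zinc finger factor, had 1063.4 and 1137.6 at 4 h, against 525.7 and 546.7 at 1 h (log2 change 1.04, SE 0.16, adjusted p = 0.0135). Junb, a subunit of AP-1, had 656.9 and 741.9 at 4 h, against 381.2 and 305.0 at 1 h (1.03, adjusted p = 0.0376). The other 3 probe sets of Egr1 had changes of 0.84, -0.66 and 0.04, and the second of Junb 1.74, all without a call. Sham values of 928.8 and 967.9 for Egr1 and 1028.2 and 996.4 for Junb were nearer to those at 4 h. These 2 were the called genes of 15 immediate early factors tested (median 0.15), and Ier3 (-0.62, with a second probe set called lower at -0.83) and Btg1 (0.60) were not called. Dusp1, the phosphatase that turns off MAP kinases, had 687.7 and 704.4 at 4 h, against 2977.2 and 3542.1 at 1 h, a fall of 4.67-fold (-2.22, SE 0.19, adjusted p = 0.000801), and both other probe sets were called lower. It was the one called gene of 12 MAP kinase phosphatases and growth genes (median -0.13), with Gadd45a (0.70, adjusted p = 0.051), Ccng1 (1.19) and Ccnd2 (-0.96) not called. Cish, a feedback inhibitor of cytokine and growth hormone receptors, had 269.6 and 170.5 at 4 h, against 893.1 and 740.2 at 1 h (-1.92, adjusted p = 0.0122). Pik3r1, the regulatory subunit of phosphoinositide 3-kinase, had 16.6 and 14.3 at 4 h, against 134.1 and 174.5 at 1 h, and was at least 4.2-fold lower (adjusted p = 0.00253). Its sham, 8 h and 24 h arrays were all nearer to 4 h than to 1 h on the log2 scale. Pik3r1 was thus tested only through the 1 h arrays, where it was high. Cish and Pik3r1 belong to a list of 20 tested genes of insulin and growth hormone signalling. Of that list 0 were higher and 2 lower, with a median of -0.10, beside 2.35% of all genes called lower. Igfbp2 (2.10, adjusted p = 0.084, with a dimmer probe set called higher at 1.38) and Socs2 (-0.74) were not called. Dusp1 kept the call with each array left out in turn. Egr1 was not called without any of the 4 h and 1 h arrays (adjusted p up to 0.0842). Junb was not called without any of the sham, 1 h, 4 h and 24 h arrays (adjusted p up to 0.189). Cish was not called without either of the 1 h arrays or 4 h array 2 (adjusted p up to 0.0804). Pik3r1 kept its call with each array left out and was not called with the floor raised to the 50th percentile or with an intensity trend (adjusted p up to 0.243).

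Transcription factors of hepatocyte identity included 2 decreases. Onecut1, the factor HNF-6, had 355.8 and 243.5 at 4 h, against 1613.8 and 1700.9 at 1 h, a fall of 5.63-fold (log2 change -2.49, SE 0.23, adjusted p = 0.00133), and its sham arrays were between at 831.5 and 885.2. Foxa2, which opens chromatin at liver genes, had 83.5 and 94.3 at 4 h, against 209.5 and 230.0 at 1 h (-1.31, adjusted p = 0.0145), and was highest in sham livers at 544.9 and 434.0. Of 20 hepatocyte factors and nuclear receptors tested 2 fell and 0 rose, beside 2.35% of all genes called lower, and the median was 0.02. Klf9 (0.77, adjusted p = 0.0512) and Foxa3 (1.01, adjusted p = 0.0594) were not called. Irf7, a factor of the interferon response, had 58.9 and 53.6 at 4 h, against 290.3 and 334.1 at 1 h, a fall of 5.54-fold (-2.47, SE 0.17, adjusted p = 0.000316). Its second probe set had a change of -0.02 and was not called, with 135.5 and 147.2 at 4 h, against 156.9 and 130.9 at 1 h. On the called one it stood at 714.8 and 706.8 at 8 h and 44.5 and 55.2 at 24 h, so the series had no single direction after the burn. Irf7 was the one called gene of 22 cytokine receptors and signalling genes by the chosen probe sets (median -0.01), or 4.55%, near the 4.49% of all genes called. Il1r1, the interleukin-1 receptor, had 3 probe sets tested, of which 1 was called. On M95578_at, named after its values were seen, it read 572.1 and 577.2 at 4 h, against 100.1 and 84.3 at 1 h (2.64, SE 0.22, adjusted p = 0.000728), and on U14010_g_at 411.4 and 540.6 at 4 h, against 117.8 and 72.7 at 1 h (2.35, adjusted p = 0.0661). M95578_g_at of Il1r1 had a change of 1.62 and was not called either. Stat3 (2.02, adjusted p = 0.0605) and Tnfrsf1a (1.28) were not called. Onecut1, Irf7 and Il1r1 on M95578_at kept the call with each array left out in turn. Foxa2 was not called without any of the 4 h and 1 h arrays (adjusted p up to 0.0969).

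Among acute phase proteins, 2 positive ones rose and 1 negative one fell. Serpina3n, a secreted protease inhibitor, had 20338.7 and 24065.6 at 4 h, against 8722.1 and 8614.4 at 1 h (log2 change 1.35, SE 0.15, adjusted p = 0.0035). Agt, angiotensinogen, had 18571.0 and 25295.2 at 4 h, against 10391.4 and 9764.2 at 1 h (1.10, adjusted p = 0.026). These were the 2 called genes of 23 positive acute phase proteins tested, with 0 lower and a median of 0.04, beside the 2.13% of all genes called higher. On dimmer probe sets alone, Fga was called higher (0.92) and Cp lower (-0.84). A2m, the alpha-2-macroglobulin of the rat acute phase, had 1249.3 and 2023.9 at 4 h, against 616.7 and 263.6 at 1 h, and its log2 change of 1.98 was not called (adjusted p = 0.117). Mug1, a macroglobulin of the normal rat, fell to 5938.2 and 5490.1 at 4 h, against 10769.2 and 10939.2 at 1 h (-0.93, adjusted p = 0.0153), the one call of 15 negative acute phase and carrier proteins (median -0.24). Serpina7 (0.79), Ttr (-0.34) and Igfals (-0.39) were not called. Of 17 complement and clotting genes 16 had a log2 change below 0, beside 1740 of all 3143 genes tested. C1r, of the first complement component, was the one called, with 3809.4 and 4557.4 at 4 h, against 7615.3 and 6758.0 at 1 h (-0.78, adjusted p = 0.0388). That is 5.88% of the list, near the 4.49% of all genes called. The list's median was -0.23, and C1s (-1.06, adjusted p = 0.0568), F9 (-0.52) and C9 (-0.59) were not called. Serpina3n kept the call with each array left out in turn. Agt was not called without any of the 1 h and 24 h arrays or 4 h array 2 (adjusted p up to 0.14). Mug1 was not called without any of the 4 h and 1 h arrays (adjusted p up to 0.0981). C1r was not called without any of the 10 arrays (adjusted p up to 0.181). Serpina3n was not called with the 4 h and 1 h arrays alone in the fit (adjusted p = 0.0817).

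The lists of cell housekeeping had no gene called by limma on the probe set with the highest mean, though a dimmer probe set called 4 of their genes. These were Psmd1 of the proteasome (log2 change 1.92), the mitochondrial chaperone Hspa9 (1.90), the antioxidant factor Nfe2l2 (-1.26) and Sod1, given last. On these probe sets, named after their values were seen, Nfe2l2 was not called without any of the 10 arrays (adjusted p up to 0.214), Hspa9 without any of 9 (up to 0.181) and Psmd1 without either of the 1 h arrays or 4 h array 1 (up to 0.0952). Their medians were 0.10 for 40 ribosomal proteins, 0.16 for 54 genes of electron transport and ATP synthase, 0.02 for 25 proteasome and ubiquitin genes and 0.09 for 22 antioxidant enzymes. Heat shock proteins (-0.01, 14 genes), chaperones of the endoplasmic reticulum (0.17, 15), apolipoproteins (-0.24, 16) and carboxylesterases (-0.17, 4) were likewise without a call. Genes with an unadjusted p under 0.05 numbered 0 of the ribosomal proteins, 8 of electron transport, 1 of the proteasome, 6 of the antioxidant enzymes, 4 of the heat shock proteins, 3 of the chaperones, 3 of the apolipoproteins and 0 of the carboxylesterases. Members with small p included Hspd1 (0.71), Pdia4 (-0.46), Apoc4 (0.55) and Ces2e (0.61). Sod1, a copper and zinc superoxide dismutase, had probe sets that moved in opposite directions. M25157mRNA_i_at read 2426.2 and 3318.2 at 4 h, against 6823.8 and 6806.6 at 1 h (log2 change -1.26, adjusted p = 0.0144). Y00404_s_at read 7404.5 and 10215.7 at 4 h, against 3041.0 and 3733.6 at 1 h (1.37, adjusted p = 0.0131), and M21060_s_at, with -0.12, was not called. No direction is given for the gene. It was the one gene with probe sets called in both directions. In other lists too, some genes, named after their values were seen, were called on a dimmer probe set alone: Nr0b2 (1.77), Cyp1a2 (0.84), Slc3a2 (1.08) and Il1a (2.85, depending on the floor) higher, and Cyp2c13 (-0.92), Tap1 (-1.19), Errfi1 (-0.93) and Igf1r (-1.52, depending on the floor) lower.

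The largest decreases of the whole comparison were genes of exocrine pancreas enzymes, which liver tissue is not known for. Prss1, a trypsinogen, had 5.7 and 4.9 at 4 h, against 5339.9 and 4261.7 at 1 h, and was at least 131-fold lower (log2 change -7.03, SE 0.16, adjusted p = 3.40e-06). Cpb1, carboxypeptidase B, had 14.9 and 8.4 at 4 h, against 2980.2 and 2438.0 at 1 h, and was at least 74-fold lower. Ctrb1, a chymotrypsinogen, had 78.7 and 89 at 4 h, against 3820.7 and 4760.8 at 1 h (-5.67). The signal of these genes lay near the floor at 4 h and far above it at 1 h. Pnlip, pancreatic lipase, had 312.1 and 246.9 at 4 h, against 6693.0 and 7254.4 at 1 h (-4.65), and Amy2a3, pancreatic amylase, named after its values were seen, had 991.1 and 663.9 at 4 h, against 8972.5 and 9304.9 at 1 h (-3.49). Further genes among the 15 largest decreases were Pla2g1b (-5.60, a size that depends on the floor), Cpa1 (-5.05), Prss3b (-4.83, a bound), Rnase1 (-4.52), Prss2 (-4.52, depending on the floor), Cela2a (-4.32), Cel (-3.60), Pnliprp1 (-3.57) and Ctrc (-3.52). Of the 15 genes with the largest decrease only Slc25a30 and Dbp were no pancreatic markers. In bulk tissue fewer cells of a type and less RNA per cell cannot be told apart. Pnliprp1 was not called without any of the 4 h and 1 h arrays (adjusted p up to 0.058). Ctrc was not called without any of the 1 h, 4 h, 8 h and 24 h arrays (adjusted p up to 0.165).

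Of 23 exocrine pancreas markers tested, 20 were called lower, 0 higher, and 22 had both 4 h arrays below both 1 h arrays, around a median of -3.57. Among these, Prss3bl1, Gp2 and Pnliprp2 were above their array's median on the 1 h arrays alone. They were tested only because they were high at 1 h, so their decreases are no separate support. Of all genes tested 2.35% were called lower, and 877 of 3143 had both 4 h arrays below both 1 h arrays. The 3 exocrine markers without a call were Pnliprp2 (-1.99, adjusted p = 0.0698), Spink1 (-1.30) and Spink1l (-0.33). Summed over the 27 markers measured, intensity was 9271.3 and 6491.2 at 4 h, against 55475.5 and 57200.6 at 1 h. The sums in time order were 16694.8 and 17306.8 in sham livers, 55475.5 and 57200.6 at 1 h, 9271.3 and 6491.2 at 4 h, 29390.4 and 26804.1 at 8 h, and 10044.3 and 11020.8 at 24 h. The level therefore did not follow time in one direction, and sham and 8 h livers held an intermediate amount. Spink1l, without a call, was most of the sum at 4 h, with 6109.4 and 3639.0, against 6676.3 and 5263.6 at 1 h. It read 5473.7 and 5776.7 in sham livers and 13938.5 and 11170.8 at 8 h. The sums thus follow the called markers only in part. Both 4 h arrays were at the floor for 9 of the 27 markers and both 1 h arrays for 0. Of 8 endocrine pancreas markers only Ins1 and Ins2 were bright enough to test, with log2 changes of -0.37 and -0.32, no call by limma and 0 at an unadjusted p under 0.05. Ins1 had 773.1 and 837.8 at 4 h, against 1012.9 and 1063.9 at 1 h. With the exocrine markers left out of the fit, 233 other probe sets were called, 126 higher and 107 lower, so most calls did not come from the genes of this list. The list did not hold every pancreatic gene: syncollin, Sycn, named after its values were seen, stayed in and was called lower (-3.02). The part of the exocrine markers in any other change was not tested.

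**Figure D4:**
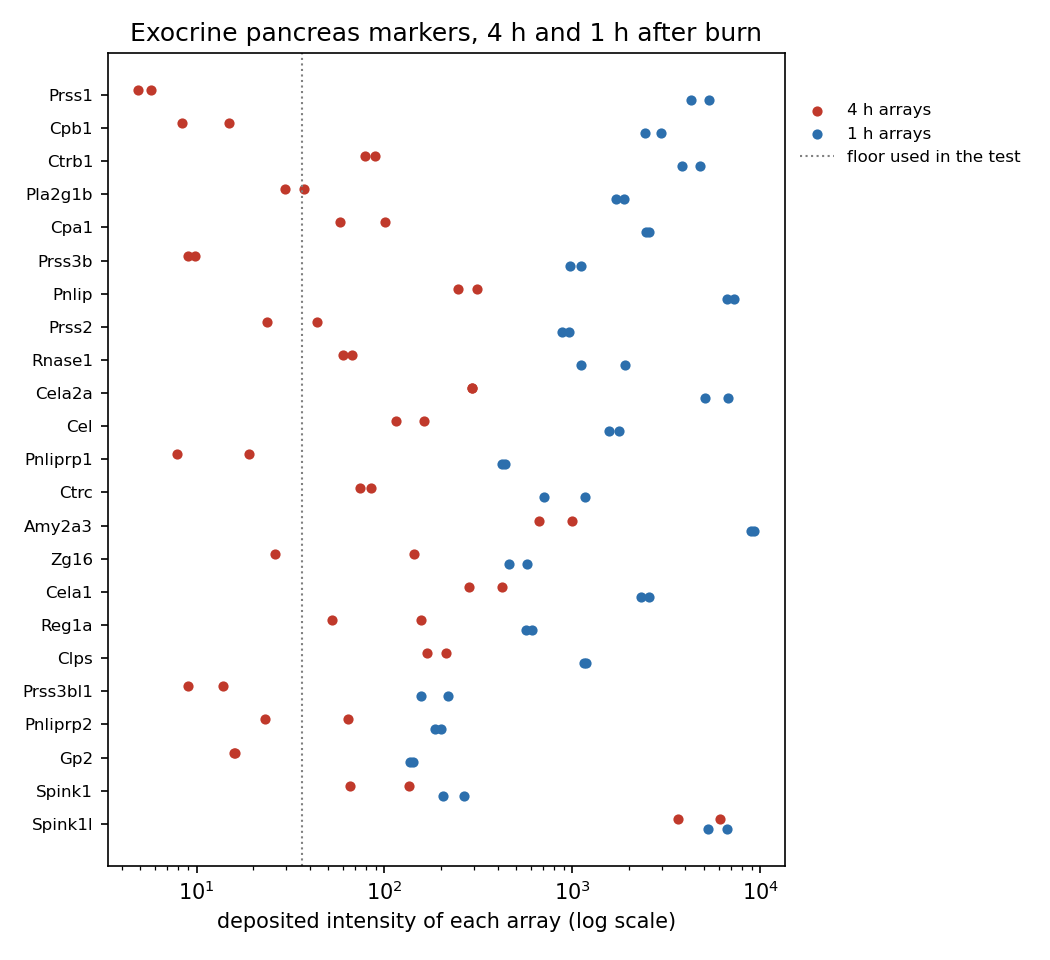
Intensity of each array (horizontal, log scale) at 4 h (red, upper of each pair) and 1 h (blue, lower) for the 23 exocrine pancreas markers tested. The 4 h arrays lie to the left of the 1 h arrays, at lower intensity, in 22 of them. They are under the floor for genes such as Prss1 and Cpb1. Prss3bl1, Gp2 and Pnliprp2 were tested only because their 1 h arrays were high.

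Among markers of other cells, 4 genes were called, all of them lower at 4 h. Of 8 Kupffer cell and macrophage markers 2 fell: Clec4f, a Kupffer cell lectin, had 630.4 and 684.9 at 4 h, against 1095.1 and 1080.9 at 1 h (log2 change -0.73, adjusted p = 0.0327). Lyz2, a lysozyme of macrophages, had 412.0 and 503.4 at 4 h, against 893.2 and 1040.0 at 1 h (-1.08, adjusted p = 0.041). The summed Kupffer markers were 5992.9 and 6366.3 at 4 h, against 7283.4 and 7685.1 at 1 h. Of 16 lymphocyte and antigen presentation markers RT1-Da, a class II antigen presenting chain, was called, with 548.6 and 376.5 at 4 h, against 1211.9 and 955.3 at 1 h (-1.24, adjusted p = 0.0296), and the list's median was -0.35. Cd74, its invariant chain, had a log2 change of -1.20 without a call. That list summed to 9852.2 and 7966.1 at 4 h, against 14976.7 and 12846.0 at 1 h, beside the fall of the interferon factor Irf7, and its part in that fall was not tested. Cfd, an adipose and complement gene, had 46 and 56.8 at 4 h, against 136.3 and 190.1 at 1 h (-1.66, adjusted p = 0.0195), the one call of 8 adipose and muscle markers. Endothelial (median 0.15, 7 genes), stellate (-0.08, 11), bile duct (-0.15, 6) and neutrophil (0.73, 2) markers had 0 genes called by limma, with 3, 1, 0 and 1 at an unadjusted p under 0.05. Cfd was not called without any of the 4 h and 1 h arrays (adjusted p up to 0.119). RT1-Da was not called without any of the sham, 1 h and 24 h arrays or 4 h array 2 (adjusted p up to 0.156). Clec4f was not called without any of the 10 arrays (adjusted p up to 0.149). Lyz2 was not called without any of the sham, 1 h, 4 h and 8 h arrays (adjusted p up to 0.197).

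The other groups place the step in the time course, in a description chosen after the data were seen. For each called probe set outside the exocrine pancreas list, the arrays of another group were placed on the 1 h or the 4 h side of the midpoint between the 2 times on the log2 scale. Of 130 probe sets higher at 4 h, both sham arrays lay on the 1 h side for 92 and on the 4 h side for 26. Both 8 h arrays lay on the 1 h side for 81 and on the 4 h side for 42, and both 24 h arrays for 50 and 74. Of the 111 lower at 4 h, both sham arrays lay on the 1 h side for 73 and on the 4 h side for 27. For these the 8 h arrays lay on the 1 h side for 67 and on the 4 h side for 31, and the 24 h arrays for 42 and 62. In both directions sham and 8 h arrays were thus more often on the 1 h side, and 24 h arrays more often on the 4 h side. Bmal1 and Atp1b1 had the sham, 8 h and 24 h arrays on the 1 h side, and for Ugt2b1 and Gsta3 all of these were on the 4 h side. Abcc3 and Cyp2c11 had sham values on the 4 h side, but the 8 h arrays of Abcc3 and the 24 h arrays of Cyp2c11 were on the 1 h side.

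**Figure D5:**
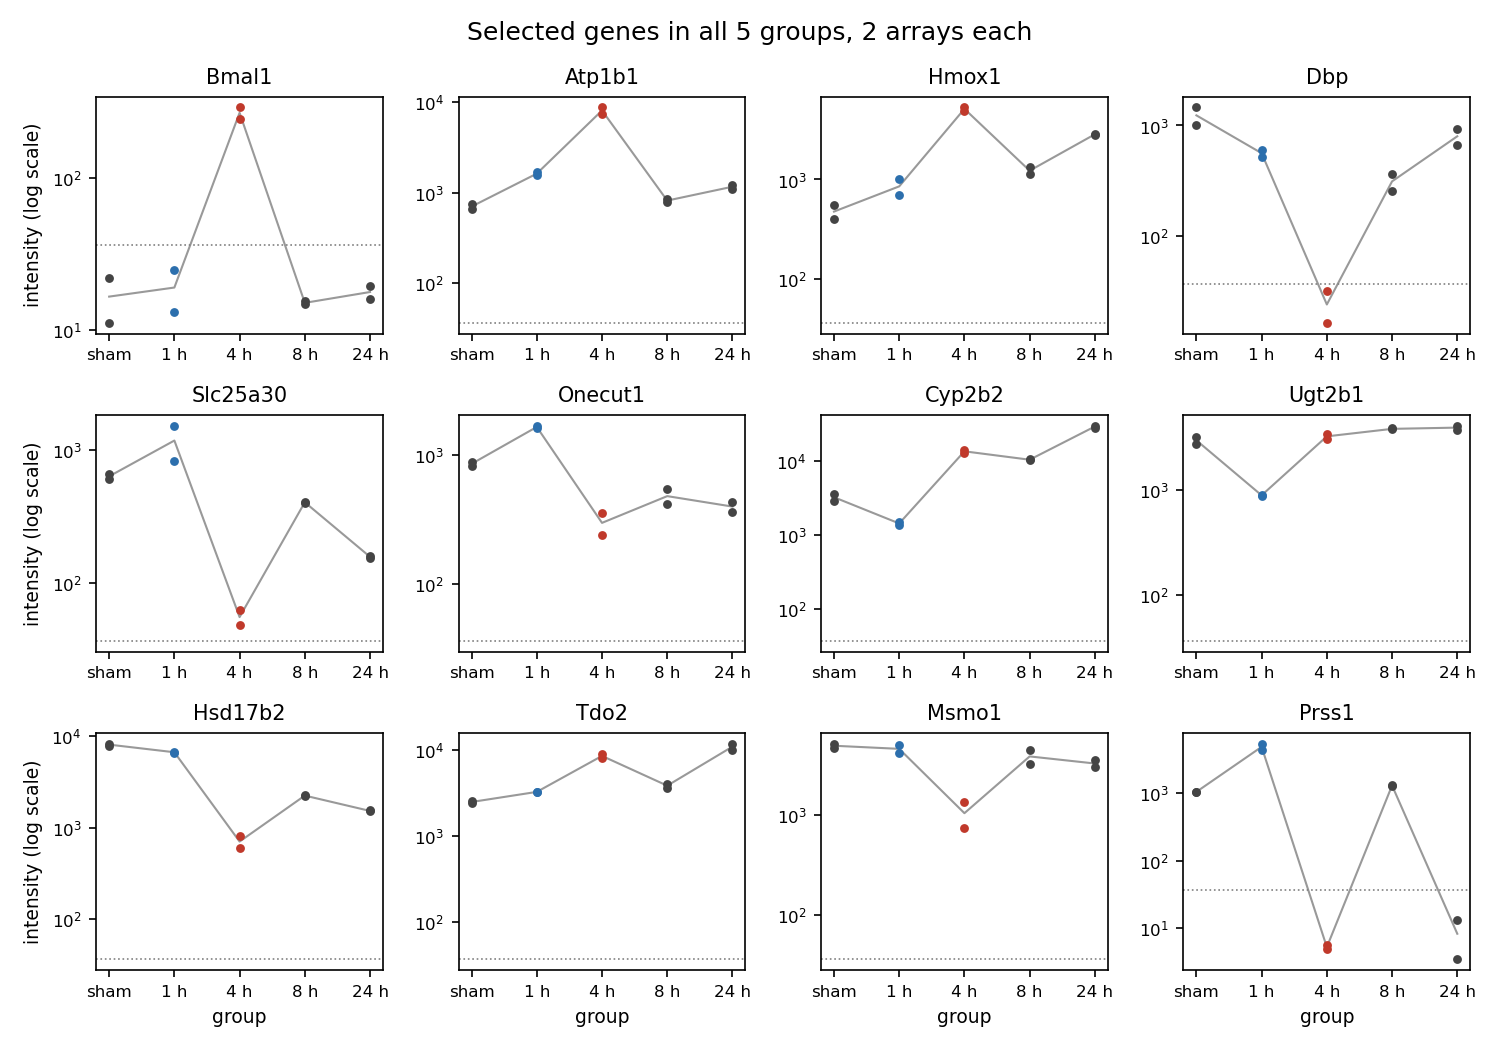
Intensity of each array (points, log scale) and the mean of the 2 arrays (line) in sham livers at 0 h and at 1, 4, 8 and 24 h after the burn for 12 genes, with the floor of 36.4 as a dotted line. Bmal1 and Atp1b1 peak at 4 h, Dbp and Slc25a30 have their lowest values there, and Ugt2b1 is lowest at 1 h.

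The changes at 8 h and 24 h over sham share no array with the step in their means, but all comparisons share 1 error estimate over the 10 arrays. Probe sets called in the step were thus chosen in part for a small error in these too, and the share of all probe sets is not what no change would give. Among the 130 probe sets higher at 4 h than at 1 h, 22 were higher and 7 lower at 8 h than in sham livers, where 1.55% of all probe sets were higher and 1.95% lower. At 24 h against sham, 50 of them were higher and 8 lower, where 3.94% of all probe sets were higher and 6.34% lower. Among the 134 lower at 4 h, 14 were higher and 17 lower at 8 h than in sham livers, and 9 were higher and 57 lower at 24 h. Without the exocrine markers the 111 left had 9 higher and 17 lower at 8 h, and 9 higher and 46 lower at 24 h. Hsd17b2, among the 57, was 7878.4 and 8249.3 in sham livers, 6762.0 and 6548.5 at 1 h, 597.6 and 810.2 at 4 h, 2285.3 and 2188.8 at 8 h and 1540.4 and 1500.6 at 24 h. Cyp2b2, among the 50, was 2899.2 and 3529.7 in sham livers, 1494.1 and 1346.2 at 1 h, 12926.0 and 13929.2 at 4 h, 10571.5 and 10103.2 at 8 h and 30009.9 and 28172.1 at 24 h. Over all 5285 probe sets the change between 4 h and 1 h correlated with the change between 24 h and 8 h at a Pearson r of 0.286, and at 0.226 without the exocrine markers, a description over probe sets that are not independent of each other.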

How the data were processed

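Rat liver RNA was measured on 10 arrays in 5 groups of 2, sham at 0 h and burn at 1, 4, 8 and 24 h. The authors deposited 1 linear intensity per probe set and array, from 8799 probe sets. For these deposited intensity values the software was not given in the sources used here. Each array had a trimmed mean of 500.9 to 501.0, so the values appear scaled to a common target. Probe sets were named from the platform annotation: 7018 had 1 gene symbol, 308 several genes and 1473 none, and 6994 matched a gene of the RefSeq table.

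Computed here: intensities below 36.4, the median of the arrays' 25th percentiles, were raised to it before log2. Probe sets above their array's median on at least 2 of 10 arrays were tested with limma 3.58.1 in R 4.3.3, with 5 group means and all 10 arrays, which left 5 residual degrees of freedom. P-values were adjusted by Benjamini-Hochberg over the 5285 probe sets tested, and the fit was tested on simulated data. A gene stands for its probe set with the highest mean. Genes named were the 15 largest increases and 15 largest decreases among calls without overlap, in each list the 4 genes of lowest p, and every member of lists of up to 12, with further ones said to be chosen after their values were seen. The lists and the comparison were chosen with earlier results of these data known. Alternatives were other scalings, floors, filters, variance models, array sets and probe set designs, the replicate number as a block, the pancreatic genes left out, and each array left out.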

Additional observations from a re-analysis of the deposited data

How the results depend on the processing

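The count of 264 probe sets called between 4 h and 1 h depended on the fit. It was 401 (209 higher) with a floor at the 50th percentile and 428 (228 higher) with an intensity trend and robust variance. Fewer passed with only the 4 arrays compared (89, 37 higher and 52 lower), with the 6 sham, 1 h and 4 h arrays (139, 62 and 77) and with plain probe set designs alone (127, 58 and 69), where fewer arrays or probe sets entered. Scaling the arrays to a common median gave 82 lower. With each array left out in turn, calls ran from 113 to 236, with 51 to 117 higher and 54 to 119 lower. The lone array of a time was then taken to vary as much as the other groups. Of the 264, the later comparisons with sham called 60 at 8 h and 124 at 24 h. At 8 h this became 33 (common median), 101 (50th percentile floor), 96 (no filter), 126 (trend), 18 (plain designs) and 14 to 36 (each array left out). At 24 h it became 195 (50th percentile floor), 222 (trend), 60 (plain designs) and 55 to 110 (each array left out).

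Quantile normalization, the floor at the 10th percentile, the filter on the 4 arrays, the 8 burn arrays and leaving out the pancreatic genes kept the count within 1.5 times. None of the 211 called probe sets with a gene symbol changed direction under any setting named here. The cause of these differences was not tested, beyond the smaller number of arrays or probe sets. Deviations of same-numbered arrays correlated at 0.011 to 0.170, above 0.1 in 5 of 10 pairs of groups (0.156 for 4 h and 1 h), so the numbers were not taken to pair the arrays, and a shared source was not shown or excluded. With the replicate block, 287 probe sets were called, 139 higher and 148 lower, of which 244 were among the 264. Bag6, Ctrc and C1r were among those not called with it (adjusted p = 0.0532, 0.0543 and 0.0509), as were the dimmer probe sets of Ier3, Il1a, 1 of Dlat and 1 of Gpam.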
